A study of Bos taurus with 13 samples.

Results

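The genes that encode the proteins of the cytosolic ribosome were examined in blood RNA of dairy cows with high or low cortisol in milk. Gene names beginning with RPL or RPS followed by a number, together with *RPSA*, *RPLP0*, *RPLP1* and *RPLP2*, were taken from the count tables if they held 100 or more counts over all cows. Of 57 names that matched, 54 met this minimum, out of 16095 named genes in all. *RPL39*, *RPS15A* and *RPL10L* were left out with 3, 22 and 1 counts in total. The 54 genes comprised 23 genes of the small (40S) subunit and 31 of the large (60S) subunit, 51 of them among 79 standard ribosomal protein names. Another 24 of the standard names, such as *RPL4*, *RPL5*, *RPS4X* and *RPS24*, were not analysed here, so every sum over the genes leaves them out.

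The animals were lactating Italian Red Pied (Italian Simmental) cows of a single commercial herd, ranked by milk cortisol, and each library was 1 cow. The high group had 7 cows (replicates 1 to 7) and the low group had 6 (replicates 8 to 13), and other cows selected by the study were not analysed here. Blood came from the tail vein into PAXgene tubes, which fix RNA at collection, and globin transcripts were not removed. The labels give no treatment, and cortisol rank cannot be told apart from other differences between these cows.

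Each ribosome joins a 40S subunit, which holds the mRNA and decodes it, to a 60S subunit, which forms the peptide bond. Nearly every ribosomal protein is needed in a single copy per ribosome, and the mRNAs carry a terminal oligopyrimidine (TOP) start through which the kinase mTOR adjusts their translation together. Among blood cells, resting lymphocytes hold much of their mRNA as ribosomal protein transcripts, whereas mature neutrophils hold few. In bulk blood, fewer cells of a type and less RNA per cell cannot be told apart.

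Counts in named genes ranged from 11045599 to 28124575 per cow, and 11033 genes passed the filter on low counts. Levels are given as CPM (counts scaled to library size by TMM) or, to compare genes, as RPKM (CPM per 1000 bases of exon). Blood cell genes were present in every cow, with *CSF3R* (neutrophil) between 2107 and 6098 CPM, *CD3E* (T cell) between 764 and 1722 CPM and *CD79A* (B cell) between 469 and 1172 CPM, while the milk protein gene *CSN2* had 0 counts. The haemoglobin genes *HBB*, *HBG*, *HBM* and *HBQ1* took 0.0282% to 0.815% of counts in the high group and 0.0114% to 0.0552% in the low group. The library of high replicate 4 stood apart from the others. It held 218 genes at more than 2 times the level of every other cow, against 1 to 15 such genes in each other cow. Results are therefore given with and without it.

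Shares of blood RNA taken by ribosomal protein genes overlapped between the groups. The share of named-gene counts ranged in the high group from 4.15% (replicate 3) through a median of 5.13% to 6.36% (replicate 7). In the low group it ranged from 3.60% (replicate 8) through a median of 4.77% to 5.74% (replicate 13). The groups overlapped over most of their range, and the mean was 5.27% ± 0.76 (SD, n = 7) in the high group and 4.81% ± 0.76 (SD, n = 6) in the low group. The difference of 0.461 percentage points was smaller than the spread between cows of a group. It was 0.326 without high replicate 4, 0.279 without high replicate 7 and 0.219 without low replicate 8, and 0.255 when the library size was scaled by TMM.

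**Figure D1:**
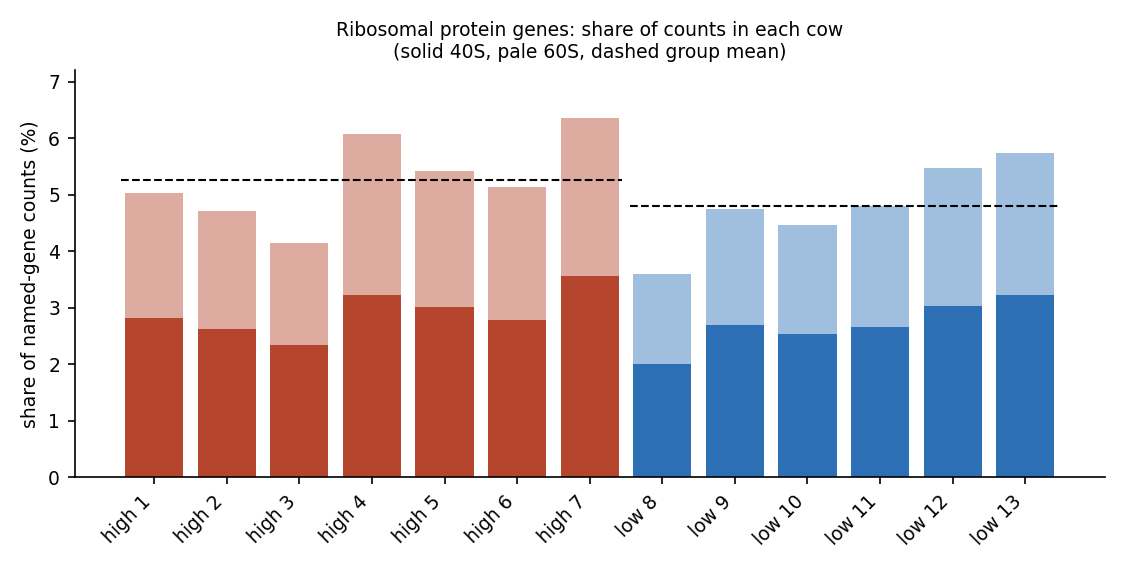
Share of named-gene counts (%) taken by the 54 ribosomal protein genes in each cow, with 40S genes solid, 60S genes pale and the group mean dashed. High cows (red) lie between 4.15% and 6.36% and low cows (blue) between 3.60% and 5.74%, so the groups overlap.

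The subunits kept nearly the same proportion from cow to cow. The 40S genes took 2.01% to 3.57% of counts and the 60S genes 1.59% to 2.85%. Across the 13 cows the shares of both subunits had a Pearson correlation of 0.96 (Spearman 0.96), and 0.98 (0.97) without high replicate 4. The ratio of 60S to 40S counts was between 0.767 and 0.846 in 12 cows and 0.884 in high replicate 4. The P-stalk genes *RPLP0*, *RPLP1* and *RPLP2*, whose proteins form the arm of the 60S subunit that receives elongation factors, together took 0.417% (low replicate 8) to 0.784% (high replicate 7) of counts.

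Levels of single genes differed far more than levels of single cows. *RPL18*, a 60S gene on chr18:55710193-55713956 (UMD3.1), had the highest mean at 5386 RPKM, with cows between 4239 and 6714. It was followed by *RPS18* at 3873, *RPSA* at 3711, *RPS3* at 3576 and *RPS28* at 3459 RPKM. *RPSA* encodes a 40S protein also known as the laminin receptor, and *RPS3* a 40S protein at the entry of the mRNA channel. The cow ranges of neighbours in this order overlapped. In all, 27 genes had a mean above 1000 RPKM and 43 a mean of 100 RPKM or more. Among the steadiest genes were *RPS3*, *RPL13*, *RPS13* and *RPS9*, with an SD of log2 CPM over the 13 cows between 0.17 and 0.20.

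At the low end stood paralogs and a set of short gene models. *RPL3L*, the striated muscle counterpart of *RPL3*, was measured at 0.545 RPKM, while *RPL3* itself had 1497 RPKM. *RPL26L1*, a paralog of *RPL26*, had 24.4 RPKM and *RPL7L1*, a paralog of *RPL7*, 116 RPKM. Of the 54 genes, 9 were annotated with a single exon, namely *RPS6*, *RPL12*, *RPL36*, *RPS3A*, *RPL8*, *RPS25*, *RPS29*, *RPL23A* and *RPL17*. Their median level was 15.8 RPKM, against 1522 RPKM for the 45 genes with more exons, and 7 of the 9 lay under 100 RPKM, against 4 of the 45.

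The position of each gene was compared by name with RefSeq, using the 10 named genes on either side. All 9 single-exon genes, and also *RPL15* and *RPL36A* with 2 exons each, shared none of these 20 neighbours with the RefSeq gene of the same name. The other 43 shared at least 13. The 11 genes without a shared neighbour had a median of 17.6 RPKM, against 1645 RPKM for the 43, and held 2.03% of the ribosomal protein counts. For example, *RPL17* was counted over chr19:41947917-41948521 (UMD3.1), a single exon of 605 bases, with 4 to 46 counts per cow. Processed copies of ribosomal protein genes are common in mammalian genomes, so values of these 11 names may not be those of the functional gene and are uncertain. Reads that matched more than 1 place were not counted under the options in the file headers, which can lower any gene with near-identical copies.

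**Figure D2:**
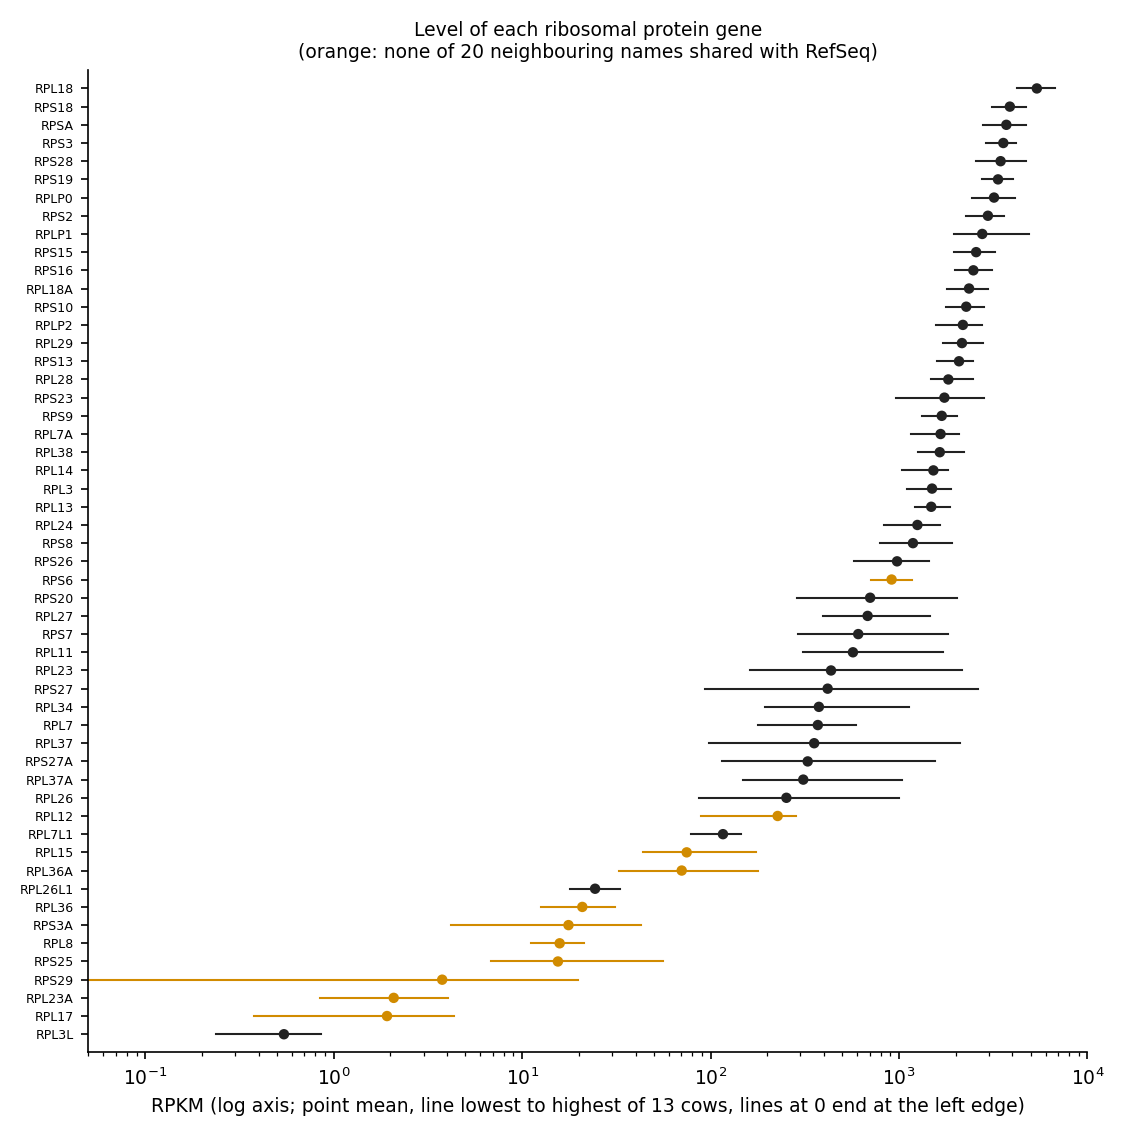
RPKM of ribosomal protein genes on a log axis (point, mean of 13 cows; line, lowest to highest cow). Genes in orange share no neighbouring gene name with RefSeq and have a median of 17.6 RPKM, against 1645 RPKM for the genes in black.

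In high replicate 4 the ribosomal protein genes were raised unevenly. Of the 53 genes that passed the filter (*RPS29* did not), 15 (28.3%) were at more than 2 times the median of the other 12 cows, against 10.2% of all genes tested. High replicate 4 was the highest cow in 19 of the 53 genes (35.8%), against 27.4% of all genes tested. The 15 genes were 6 of the 40S and 9 of the 60S subunit. The gene just inside this limit was *RPL27* at 2.40 times, and the gene just outside was *RPLP1* at 1.86 times.

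*RPS27*, which encodes a small zinc-finger 40S protein (chr3:16505732-16507247, UMD3.1), had 975 CPM in high replicate 4. The other high cows had 34.6 to 118 CPM, and low cows had 38.1 to 134 CPM. *RPL37*, a zinc-finger 60S protein gene (chr20:33667205-33669805), had 782 CPM in high replicate 4 and 36.4 to 128 CPM elsewhere, a ratio to the median of 10.2. For *RPL23* (chr19:40075000-40079360) the values were 1066 CPM against 79.5 to 312 CPM, with high replicate 6 next highest. *RPS27A* (chr11:37823446-37825428), which encodes ubiquitin fused to a 40S protein, had 729 CPM against 54.0 to 218 CPM, again with high replicate 6 next. *RPL26*, *RPS25*, *RPS7*, *RPL37A*, *RPS20*, *RPL11* and *RPL34* were at 3.61 to 6.16 times the median of the others, and *RPL36A*, *RPS3A*, *RPL17* and *RPL27* at 2.40 to 3.23 times.

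These 15 genes were of moderate or low level in the other cows, with a median of 235 RPKM and none above 617 RPKM, against a median of 1702 RPKM in the remaining 38. Of these 38, 29 lay above 617 RPKM, the highest level among the 15. Of the 15, 4 (*RPL36A*, *RPS3A*, *RPS25* and *RPL17*, with means over the 13 cows between 1.92 and 70.3 RPKM) lack a shared RefSeq neighbour. Among all 53 genes tested there were 10 such names, and their levels are uncertain. The most abundant genes were near or below the other cows in high replicate 4, with *RPL18* at 0.804, *RPS18* at 0.879 and *RPS3* at 0.989 times their median. Exon length did not separate the sets cleanly, with a median of 481 bases in the 15 and 638.5 bases in the 38. The 15 genes took 1.03% of counts in high replicate 4 and 0.118% to 0.338% in the others. *FAU*, a 40S fusion gene, was at 1.45 times. In this cow the lymphocyte score (0.015) and the named-gene counts (14298265) lay within the range of the others. Among other genes its median ratio was 0.991 for those of up to 600 bases and 1.197 for those over 4000 bases, and the part of length in its values was not tested.

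**Figure D3:**
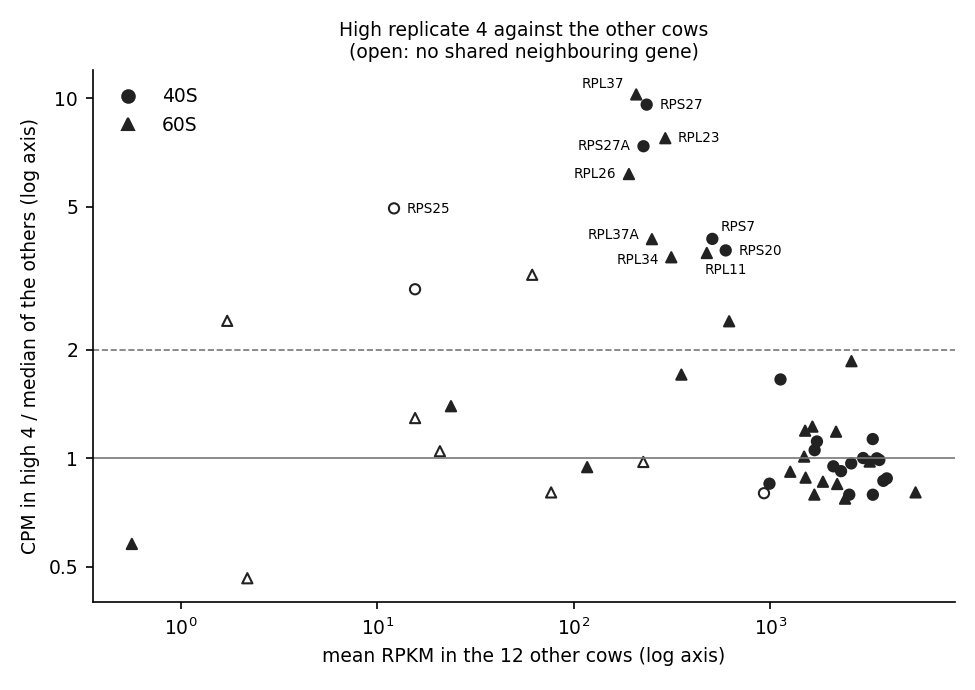
CPM in high replicate 4 divided by the median of the other 12 cows (log axis) against the mean RPKM of the other cows (log axis), for the 53 genes tested. The 15 genes above the dashed line at 2 lie at or below 617 RPKM, and genes of higher level scatter around 1.

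The genes varied together across cows. Over all 1378 pairs of genes, the median Pearson correlation of log2 CPM was 0.43, and 80.9% of pairs were positive (n = 13 cows). Without high replicate 4 the median was 0.57 and 89.6% of pairs were positive. Pairs of other genes were not measured in the same way, so these values are not shown to be particular to the set. Among the 15 genes raised in high replicate 4 the median pair was 0.88 with and 0.71 without that cow, and among the other 38 it was 0.57 and 0.65. Between both sets it was 0.16 with and 0.43 without that cow. The 15 genes were picked by their level in high replicate 4, so the values of these sets with that cow follow in part from the choice. Low replicate 8 was the lowest cow in 32 of the 53 genes, and in 720 of all 11033 genes tested. High replicate 4 was the highest in 19 (27.4% of all genes tested) and low replicate 13 in 13 (12.3%). High replicate 7 was the highest in 11 (6.63%) and high replicate 5 in 7 (10.7%). The genes least like the rest were *RPL3L* (r of -0.36 with the mean of the others), *RPL15* (-0.25) and *RPL23A* (0.072), of which the last pair lacked a shared neighbour.

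Other genes with a similar pattern were found by correlating each tested gene with the mean log2 CPM of the ribosomal protein genes. The 10 nearest over 13 cows were *COX7A2* (r = 0.89), *UQCRQ*, *ATP5J2*, *BCAT1*, *NUDT2*, *COMMD1*, *FAU*, *PDCD5*, *NDUFA12* and *NDUFS5*, with r between 0.86 and 0.89. *COX7A2*, *UQCRQ*, *ATP5J2*, *NDUFA12* and *NDUFS5* encode small subunits of the mitochondrial respiratory chain or ATP synthase. Without high replicate 4 the list changed to *CA9* (r = 0.96), *SGSM2*, *PARK7*, *COMMD1*, *ATP2A1*, *NDUFA4*, *TSPAN31*, *UBFD1*, *NUDT2* and *EEF1G*, with only 2 names in both lists. Among genes outside the set, the median correlation with the 38 genes not raised in high replicate 4 fell with length. It was 0.21 for 331 genes of up to 600 bases and -0.17 for 1300 genes over 4000 bases. The median correlation with the 15 raised genes did not fall in this way. It was 0.10 up to 600 bases, -0.11 between 1000 and 2000 bases and 0.21 over 4000 bases. The part of length in these values was not tested.

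Cows with a larger share of ribosomal protein RNA tended to have a higher mean level of T and B cell genes pooled. A lymphocyte score was made for each cow as the mean, over 38 T and B cell genes, of log2 CPM centred on each gene. The share of ribosomal protein genes correlated with it at r = 0.73 (Spearman 0.83, n = 13 cows) and at 0.78 (0.85) without high replicate 4. With the cows farthest from the median score (high replicates 5 and 7) left out, r was 0.70 (0.79, n = 11). Within the high group r was 0.63 (0.79, n = 7) and within the low group 0.94 (0.94, n = 6). Cows of similar score could differ in share, as high replicates 3 and 4 did, with 4.15% and 6.08% of counts at scores of -0.023 and 0.015. These are descriptions over few cows, in which score and share come from the same libraries, and 18 list scores were correlated in this way.

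Each lymphocyte list alone gave a lower correlation. The T cell score (24 genes) gave r = 0.44 and the B cell score (14 genes) r = 0.39, and with the 2 farthest cows left out they gave 0.32 and 0.10. Within the low group they gave 0.42 (Spearman 0.54) and 0.19 (-0.14), and within the high group 0.53 (0.64) and 0.42 (0.36). The T and B cell scores did not always move together. They were 0.25 and -0.40 in low replicate 13 and -0.17 and 0.41 in low replicate 12, but -0.12 and -0.30 in low replicate 8. The pooled score is therefore not a measure of either cell type alone. The neutrophil score (12 genes) went the other way with r = -0.64 (Spearman -0.64), and -0.67 (-0.61) without high replicate 4. With its 2 farthest cows left out it was -0.47 (-0.55). The eosinophil score gave r = -0.58, and -0.57 without high replicate 4 and -0.49 with its 2 farthest cows left out. The cytotoxic and NK, monocyte, platelet and erythroid scores gave 0.16, -0.30, -0.14 and 0.23. Without high replicate 4 these were 0.13, -0.49, -0.16 and 0.28, and with the 2 farthest cows of each score left out all 4 changed sign, to -0.16, 0.22, 0.40 and -0.35. The plasma cell, proliferation and interferon response scores gave 0.52, 0.36 and -0.38 over all cows, 0.73, 0.57 and -0.31 without high replicate 4, and 0.29, 0.18 and -0.17 without their 2 farthest cows. The glucocorticoid response score, made of genes that cortisol is known to induce, gave -0.58, and -0.71 without high replicate 4 and -0.49 without its 2 farthest cows. The share of reads in the unnamed entry of the counts, which joins all genes without a name, followed the ribosomal protein share most closely, with r = 0.86 and 0.94 without high replicate 4. Library depth gave r = -0.24 and the haemoglobin share 0.52 (Spearman 0.30).

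Gene by gene, all 53 ribosomal protein genes correlated positively with the lymphocyte score, with a median r of 0.42 and 18 (34.0%) above 0.5. This was 52 of 53 without high replicate 4, with a median of 0.51. Of 10942 other genes outside the T and B cell lists, 53.4% were positive, the median was 0.027 and 5.88% were above 0.5. The highest values were those of *RPS13* (0.71), *RPS2* (0.71) and *RPLP0* (0.69), and the lowest those of *RPS3A* (0.0014) and *RPL3L* (0.0050). The 38 genes not raised in high replicate 4 had a median of 0.49, and the 15 raised genes 0.24, or 0.55 and 0.34 without that cow. The share of the 38 genes correlated with the score at 0.78 and that of the 15 at 0.14 (Spearman 0.65), or 0.79 and 0.42 (0.66) without that cow. The 69 mitochondrial ribosomal protein genes tested, which serve a separate ribosome, had a median of 0.29.

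**Figure D4:**
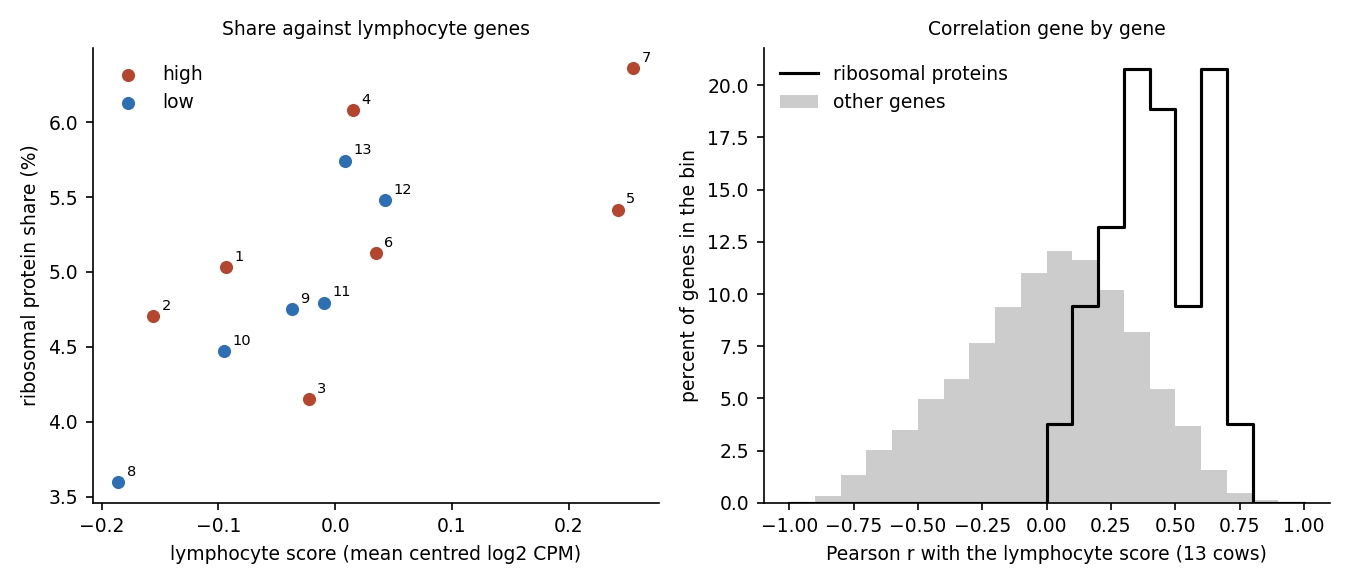
Left, share of counts (%) of ribosomal protein genes against the lymphocyte score in each cow (red high, blue low, numbers are replicates). Right, percent of genes by Pearson r with that score, where all 53 ribosomal protein genes (line) lie above 0 and other genes (grey) have a median of 0.027.

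Genes of the same pathway were set beside them. The score of 15 elongation factor and other TOP genes correlated with the ribosomal protein share at r = 0.55 over all cows and 0.83 without high replicate 4. With its 2 farthest cows left out it was 0.15. *EEF1A1*, the factor that brings tRNA to the ribosome, ranged from 7885 to 14748 CPM and was at 0.999 times the median of the others in high replicate 4, while *EEF2*, the translocation factor, was at 0.674 times. The ribosome biogenesis score (37 genes) gave 0.72, the mitochondrial ribosomal protein score 0.77, the initiation factor score (26 genes) 0.48 and the score of 23 mTOR and TOP regulators 0.33, or 0.71, 0.84, 0.52 and 0.080 without high replicate 4.

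High and low groups were compared gene by gene to ask whether ribosomal protein mRNA moved with milk cortisol. In the edgeR quasi-likelihood fit, 0 of the 53 genes reached an adjusted p of 0.05 (0% of all 11033 genes tested, and 0% of 10998 without high replicate 4), and the smallest adjusted p was 0.999. DESeq2 and limma-voom also called 0 of them. At an unadjusted p under 0.05 there was 1 gene (1.89%), against 2.09% of all genes tested, and 1 gene without high replicate 4, against 1.95%. It was higher in the high group (0.934% of all genes tested), and 0 genes were lower (1.16%). This gene was *RPL17* in both fits, a 60S protein lining the exit tunnel, at 1.04 to 2.62 CPM in high cows (median 1.30) and 0.230 to 1.44 CPM in low cows (median 0.745). The ranges overlapped, the log2 fold change was 1.08 (SE 0.40) and 0.91 (SE 0.39) without high replicate 4, and the name is 1 of the 11 without a shared neighbour. In none of the 54 genes did every high cow lie above every low cow, or below, against 0.00906% and 0.0181% of all genes tested.

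Most genes had a small positive log2 fold change. It was above 0 in 45 of 53 genes, against 53.3% of all genes tested, with a median of 0.092 against 0.013 over all genes. Without high replicate 4 it was above 0 in 44 of 53, against 49.9%, with a median of 0.078 against -0.00018. The 40S genes (19 of 22 above 0, median 0.075) and 60S genes (26 of 31, median 0.098) were alike in this. The genes vary together, so these counts are not independent, and none of the single differences passed the test. In 26 genes the log2 fold change was smaller than 0.1 in size, and the median standard error was 0.15. With the lymphocyte score of each cow in the fit, 28 of 53 were above 0 (median 0.0085), against 51.2% of all genes. With the log2 haemoglobin share 36 of 53 were above 0 (median 0.057), against 52.6%. Leaving out low replicate 8 gave 33 of 54 (median 0.040), against 54.9%. Leaving out high replicate 7 gave 36 of 53 (0.056), against 51.8%. With high replicate 3 left out there were 48 of 53 (0.14), against 54.7%. With low replicate 13 left out there were 49 of 53 (0.14), against 55.5%.

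The largest fold changes came from high replicate 4. A log2 fold change above 0.5 was seen in 12 genes with that cow and in 1 (*RPL17*) without it. For *RPS27* it was 1.37 (SE 0.67) with and 0.11 (SE 0.32) without that cow, for *RPL37* 1.31 (SE 0.62) and 0.14 (SE 0.28), for *RPL23* 1.15 (SE 0.54) and 0.28 (SE 0.30), and for *RPS27A* 1.04 (SE 0.52) and 0.22 (SE 0.29). DESeq2 at its default settings can replace single outlying counts in a group as large as the high one. With it and all cows entered, *RPS27* had 0.12 and *RPL37* 0.14, while *RPL23* had 1.15 and *RPS27A* 1.04. Whether counts of high replicate 4 were replaced was not tested. The 15 raised genes were picked by their level in high replicate 4, so a raised fold change with that cow follows from the choice. Their median was 0.66 with and 0.14 without that cow. The median of the 38 others was 0.053 with and 0.071 without it.

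Among the most abundant genes, the groups overlapped over nearly all of their range. *RPL18* had a median of 3319 CPM in the high group (2671 to 4195) and 3299 CPM in the low group (2903 to 4230), a log2 fold change of 0.027 (SE 0.13). *RPS18*, *RPSA*, *RPS3* and *RPS28* had log2 fold changes of 0.0013, -0.067, 0.078 and 0.069, each below its standard error. *RPLP0*, *RPLP1* and *RPLP2* had 0.056, 0.27 and -0.020, and *RPLP1* had 0.10 without high replicate 4. On the negative side stood *RPL3L* (-0.38, SE 0.34) and *RPS26* (-0.17, SE 0.20). *RPS26*, a 40S protein at the mRNA exit site, ranged from 725 to 1728 CPM in high and 862 to 1829 CPM in low cows.

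**Figure D5:**
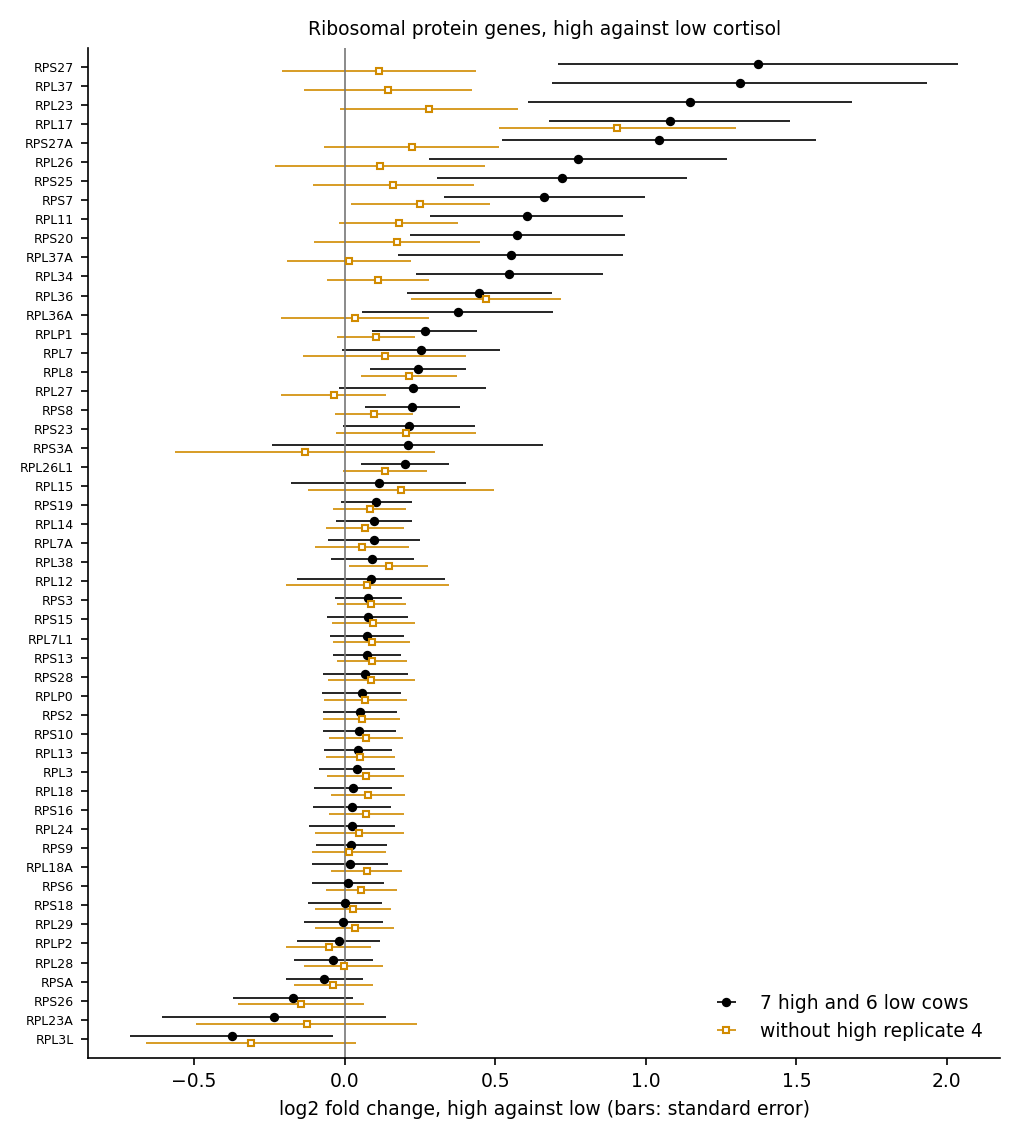
Log2 fold change of ribosomal protein genes, high against low, with standard errors, over all cows (black) and without high replicate 4 (orange squares). *RPS27*, *RPL37*, *RPL23* and *RPS27A* move from above 1 to 0.28 or less when that cow is left out.

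Other translation genes gave no called difference either. None of the 15 elongation factor and other TOP genes, 26 initiation factor genes, 37 biogenesis genes, 23 mTOR and TOP regulators or 69 mitochondrial ribosomal protein genes reached an adjusted p of 0.05. At an unadjusted p under 0.05 (edgeR) there were 0, 0, 0, 1 and 1, and the regulator was *SESN1* (log2 fold change 0.34, SE 0.16). There were 0 in each of these lists without high replicate 4. Log2 fold changes were above 0 in 3 of 15, 10 of 26, 19 of 37, 14 of 23 and 46 of 69 genes. Without high replicate 4 these counts were 8, 7, 18, 13 and 50. Beside these, the neutrophil genes had a median log2 fold change of -0.33 (3 of 12 above 0), the T cell genes -0.063 (9 of 24) and the B cell genes 0.19 (13 of 14). The median was 0.51 for erythroid genes (11 of 11), 0.42 for eosinophil genes (5 of 5), 0.22 for cytotoxic and NK genes (11 of 12), -0.33 for proliferation genes (0 of 18) and -0.69 for interferon response genes (0 of 19). None of these genes reached an adjusted p of 0.05 in edgeR, and the part of cell make-up in the ribosomal protein values was not tested beyond the fits with a score.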

How the data were processed

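RNA from whole blood of 13 cows was measured by RNA-seq, with groups taken from the sample labels. The authors deposited counts per gene name, as whole numbers without normalization. Per the file headers, featureCounts 1.4.6-p3 assigned reads to exons of the UMD3.1 annotation from Ensembl (release 88), with no option for strand, pairs or multi-mapping reads. The headers also place the alignments in a folder named for goat, under animal numbers that differ from those of the tables, so the link of table to cow rests on the labels. The submitters' processing notes name STAR 2.7.3, Subread 1.6.5 and ARS-UCD1.2 instead. Positions are those of the count tables. The entry that joins genes without a name held 13.9% to 16.7% of counts and was not used.

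The deposited counts were scaled by TMM and expressed as CPM, RPKM and log2 CPM with a prior count of 2. Groups were compared with edgeR 4.0.16 in R 4.3.3 (robust quasi-likelihood, no covariates) on the genes kept by filterByExpr at a minimum count of 10 and a minimum total of 15, with Benjamini-Hochberg adjustment over all of them. Standard errors were obtained as log2 fold change over root F. P-values describe the spread between these cows. A score is the mean of centred log2 CPM over a list. The study used DESeq2, tried here (1.42.0) as an alternative with limma-voom (limma 3.58.1), RLE and upper-quartile factors, TMM without the ribosomal protein genes, other filters, covariates, other denominators and scores, an adjusted p of 0.1 and each cow left out. A repeat with only genes sharing a RefSeq neighbour was chosen after seeing the data. RefSeq neighbours were compared by name only, on its own assembly (ARS-UCD2.0). The scripts were tested on simulated data.

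Genes named are the 3 with the smallest p in each direction, the 5 of highest and lowest RPKM, the 5 most and least variable, the 3 least like the rest, the paralogs, the P-stalk genes, *RPSA*, *RPS27A* and the 10 nearest other genes. The genes raised in high replicate 4, the single-exon genes, *FAU*, *EEF1A1*, *EEF2*, *SESN1*, *RPS2*, *RPL27* and the blood markers were named after their values were seen. The genes and lists were chosen with earlier results of these data known. Values of some genes are not reported here, though sums and counts include them.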

Additional observations from a re-analysis of the deposited data

Results flagged for a closer look

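Single cows stood apart from the rest of their group in 9 cases, out of 31 measures tried in both groups. Chance gives about 1 in 20 groups, but many of these genes were named for their large spread or small p and vary together, so the number of cases is no test. In 7 of the 9 the cow was high replicate 4, with the highest value of its group for *RPL23* (1066 CPM, next 312), *RPL37* (782 CPM, next 128), *RPS27* (975 CPM, next 118), *RPS27A* (729 CPM, next 218), *RPLP1* (2532 CPM, next 1596), *RPS25* (20.05 CPM, next 6.82) and *RPS29* (3.38 CPM, next 0.645). *RPL15* stood apart in high replicate 5 with 130.8 CPM, next 53.2. *RPL18* stood apart in low replicate 13 with 4230 CPM, next 3375. The last pair of genes rests on 1 cow each, and *RPS25*, *RPS29* and *RPL15* are among the names without a shared RefSeq neighbour. The share of the ribosomal protein genes, the share of each subunit, their ratio and the lymphocyte score showed no such cow.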

How the results depend on the processing

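No paired analysis was possible because the high cows carry replicates 1 to 7 and the low cows 8 to 13. No ribosomal protein gene was called under any alternative run, and over all genes DESeq2 called 1, *CYP4X1*, outside the set. Genes of the set at an unadjusted p under 0.05 were 1 as reported, against 231 of all 11033 genes tested. Counts over all genes follow in brackets, of 11033 unless given. The set had 3 with DESeq2 (348 of 14377), 2 with limma-voom (218), 2 with RLE factors (231) and 3 with upper-quartile factors (230). With 10 counts in every cow it had 2 (197 of 10082), and without the robust fit 4 (230). It had 0 with the haemoglobin covariate (120) and 2 with the lymphocyte covariate (224). Over genes sharing a RefSeq neighbour (added after seeing the data) it had 0. With each cow left out it had 1 to 9. These were 9 without high replicate 3 (209 of 11021), 7 without 5 (363 of 10964) and 6 without 2 (373 of 10979). There were 5 without high 1 (271 of 10964) or 7 (191 of 10957) and 4 without low replicate 12 (241 of 11119). There were 3 without high 6 (238 of 11005) or low 13 (197 of 11114), and 2 without low 11 (240 of 11075). The median log2 fold change was 0.040 to 0.14 and the difference in share 0.219 to 0.648 with each cow left out, and both stayed above 0 under the others. The correlation of the share with the lymphocyte score was 0.62 to 0.79 with each cow left out (scaling recomputed), 0.52 for the mean log2 CPM, 0.44 with T cell genes and 0.39 with B cell genes.

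Small log2 fold changes changed sign. With DESeq2, *RPS18* was -0.0024. There *RPS27* and *RPL37* kept their sign but were 0.12 and 0.14, and whether outlying counts were replaced was not tested. With the haemoglobin covariate, *RPS18* was -0.065, *RPS13* -0.0081, *RPL15* -0.19, *RPL7L1* -0.045 and *RPLP0* -0.031. With the lymphocyte covariate, *RPL18* was -0.046, *RPS18* -0.087, *RPL13* -0.016, *RPS13* -0.010, *RPS9* -0.030, *RPL15* -0.11, *RPL7L1* -0.0088 and *RPLP0* -0.049. With each cow left out, *RPL18* was -0.028 to 0.10, *RPS18* -0.053 to 0.067, *RPSA* -0.14 to 0.0014, *RPS28* -0.014 to 0.13, *RPS3A* -0.13 to 0.60, *RPL13* -0.0017 to 0.12, *RPS9* -0.027 to 0.080, *RPL15* -0.22 to 0.36, *RPL7L1* -0.0046 to 0.13, *RPLP0* -0.012 to 0.12 and *RPLP2* -0.087 to 0.049. The cause was not tested. Genes with few counts per cow, such as *RPL17* (4 to 46) and *RPL3L* (5 to 31), are limited by depth, where 3 counts are 0.107 to 0.272 CPM, counting error only.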
